A study of Mus musculus with 16 samples.

Results

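The libraries described here are the 8 of the youngest mice in the series, 4 from A-LTA4HOE mice, which overexpress LTA4H, and 4 from their control mice, out of 16 libraries in all. They were chosen by the genotype and age in the sample labels, and no measured value entered that choice. RNA of epididymal white adipose tissue, a visceral fat depot attached to the epididymis, was sequenced as 1 library per mouse. The other 8 libraries come from mice of both genotypes aged 20 weeks and entered only the shared estimate of spread and the values named as such.

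All 8 mice were male, ate a diet with 60 kcal% fat from 4 weeks of age for 4 weeks and were 8 weeks old. The control mice were on the same diet, so nothing here compares it with another diet. The promoter and the cell type that drive the extra gene, the strain and the exact genotype of the controls are not given in the sources used here. The 4 libraries of a group are numbered separately in the labels, and nothing states whether the mice were littermates. Each library also has a number in the labels, whose meaning they do not give: 915, 918, 935 and 936 for control replicates 1 to 4 and 916, 938, 951 and 952 for A-LTA4HOE replicates 1 to 4. Because whole tissue was sequenced, fewer cells of a type and less RNA per cell cannot be told apart.

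Leukotriene A4 hydrolase completes the synthesis of leukotriene B4. Cytosolic phospholipase A2 releases arachidonic acid from membranes, 5-lipoxygenase with its activating protein turns it into leukotriene A4, and LTA4H hydrolyses this to leukotriene B4, while leukotriene C4 synthase instead conjugates it with glutathione to give the cysteinyl leukotrienes. Leukotriene B4 attracts and activates neutrophils, macrophages and other leukocytes through the receptor encoded by Ltb4r1, and in obese fat it is known for its link with macrophage infiltration and insulin resistance.

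Total counts ran from 34242090 to 67576994 per library, and 19189 of 45777 genes were abundant enough to test. The tissue carried its defining transcripts in every library: Adipoq, which encodes adiponectin, ranged from 2057 to 3157 CPM (counts scaled to a common library size, with TMM factors) in controls and from 1544 to 3548 CPM in A-LTA4HOE mice. Some libraries stood apart. Control replicate 1 and A-LTA4HOE replicate 1 lay at −126 and −117 on the first principal component of the 8 libraries, which held 59.6% of their variance, against −14.7 to 83.8 for the others. They lacked genes of ciliated or secretory epithelium that the other 6 libraries carried, such as Cdh16, a kidney and duct cadherin, and Pax8, an epithelial transcription factor, both at 0 CPM in that pair. Control replicate 4 and A-LTA4HOE replicate 2 held the most epididymal duct RNA. There 26 epididymal epithelium genes summed to 3775 and 2508 CPM, against 201 CPM in control replicate 3 and 2.55 to 21.6 CPM in the rest. This second pair is called the libraries with epididymal RNA below, and fits without it kept control replicate 3. The library numbers are 915 and 916 in the first pair and 936 and 938 in the second. Number 935, also next to 936, is control replicate 3, with 201 CPM. Numbers 951 and 952, A-LTA4HOE replicates 3 and 4, lay at −14.7 and 48.0 on the first component. What neighbouring numbers share was not tested. Smooth muscle and pericyte genes summed to 4903 and 4907 CPM in that second pair and to 1206 to 1525 CPM elsewhere.

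Lta4h (gene ID 16993, chromosome 10, 93453396 to 93484896 on mm10) was read at 104, 79.4, 85.4 and 90.0 CPM in control replicates 1 to 4 and at 398, 251, 427 and 335 CPM in A-LTA4HOE replicates 1 to 4. Every A-LTA4HOE library lay above every control library, with a wide gap between the groups. Lta4h thus rose 3.94-fold, a log2 fold change of 1.98 ± 0.14 (standard error; 95% interval 1.67 to 2.28, n = 4 in each group, edgeR adjusted p = 2.08e-05; exact permutation test, two-sided p = 0.0286, which is the lowest value possible for 4 against 4 libraries). Per length, its level averaged 88.7 TPM (transcript level scaled by length and library size) in controls and 347 TPM in A-LTA4HOE mice. The deposited counts do not separate the mouse's own gene from an added copy of matching sequence. A-LTA4HOE replicate 2, the lowest of its group, was the library with epididymal RNA, and without that library and control replicate 4 the log2 fold change was 2.11 (adjusted p = 9.11e-06).

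Of 19189 genes tested, 4 were called higher in A-LTA4HOE mice at an edgeR adjusted p under 0.05 (0.0208%) and 0 lower (0%). DESeq2 called 10 higher and 5 lower, and limma voom with sample weights 10 higher and 2 lower. At an unadjusted p under 0.05, edgeR had 214 genes higher (1.12%) and 210 lower (1.09%). The 4 libraries of one group lay wholly above those of the other for 151 genes higher (0.787%) and 86 lower (0.448%) in A-LTA4HOE mice. A random split of these libraries sets the groups apart in either direction with a probability of 0.0286 per gene. Of genes with a known position 1.24% lay apart, a smaller share, so a lack of overlap alone does not mark a gene out. Of the same genes 2.21% had an unadjusted p under 0.05 with edgeR, also less than that threshold. The median log2 fold change over all genes was 0.00, and 90% of genes lay between −0.53 and 0.43.

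**Figure D1:**
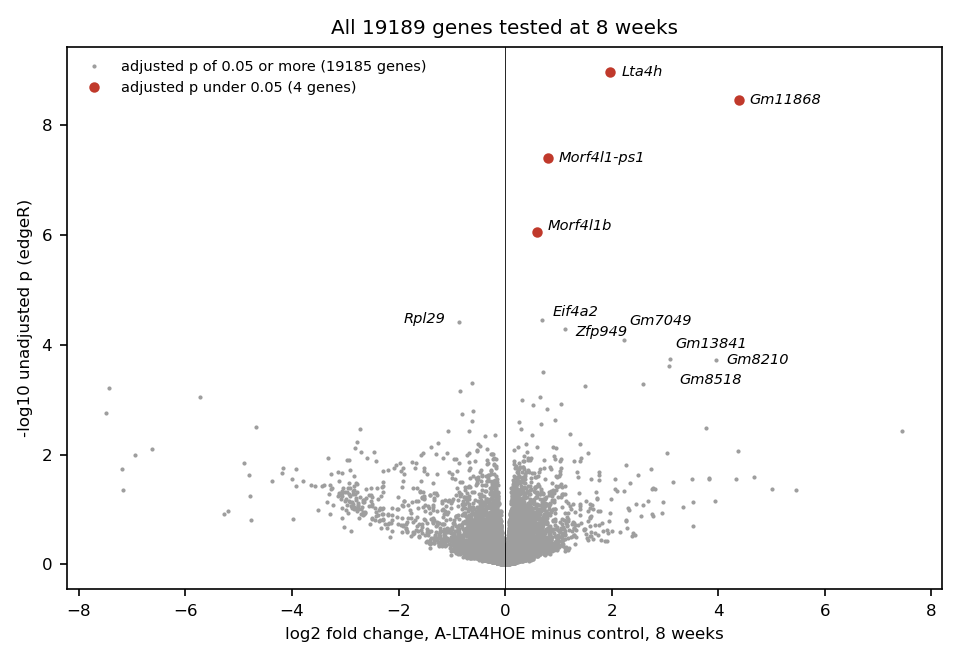
Each point is one of the 19189 genes tested, with the log2 fold change (A-LTA4HOE minus control at 8 weeks) on the horizontal axis and −log10 of the unadjusted edgeR p on the vertical axis. The 4 called genes are red, and Lta4h and the pseudogene Gm11868 stand highest.

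Within the leukotriene pathway Lta4h was the 1 gene called. Of 7 synthesis genes tested 1 was called, and of 10 tested receptor and breakdown genes 0 were called; the medians were 0.04 and 0.12 on the log2 scale. Pla2g4a, the cytosolic phospholipase A2, had 11.0, 10.6, 9.34 and 42.3 CPM in controls and 12.0, 29.7, 11.6 and 12.5 CPM in A-LTA4HOE mice. Its high values were those of the 2 libraries with epididymal RNA. Alox5, the 5-lipoxygenase, had 16.1, 12.5, 11.3 and 10.7 CPM in controls and 13.2, 11.7, 13.9 and 13.3 CPM in A-LTA4HOE mice, a log2 difference of 0.04 ± 0.13 with a 95% interval of −0.25 to 0.33. Alox5ap, its activating protein, had 52.5, 30.1, 34.6 and 34.9 CPM in controls and 44.3, 47.6, 37.0 and 38.3 CPM in A-LTA4HOE mice (0.14 ± 0.22). The groups overlapped for both genes, and the intervals leave out a doubling of either.

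The competing branch was not called either. Ltc4s, the leukotriene C4 synthase, had 139.8, 78.9, 76.9 and 57.9 CPM in controls and 104, 45.1, 111 and 54.7 CPM in A-LTA4HOE mice (−0.17 ± 0.30). Mgst2 and Mgst3, microsomal glutathione transferases of the same enzyme family, differed by 0.04 ± 0.24 and 0.18 ± 0.23. Among controls, the levels per length were 270 TPM for Ltc4s, 76.3 TPM for Alox5ap, 13.7 TPM for Pla2g4a and 9.07 TPM for Alox5. The mean of Pla2g4a rests on control replicate 4, at 33.8 TPM, and in the other 3 controls it had 6.53 to 7.48 TPM, below Alox5 at 7.99 to 11.0 TPM in each. Lta4h, at 74.7 to 99.7 TPM, exceeded both in every control library.

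Of the receptors, Ltb4r1, which binds leukotriene B4 with high affinity, had 5.52, 3.04, 4.56 and 3.32 CPM in controls and 5.15, 2.96, 4.14 and 4.9996 CPM in A-LTA4HOE mice (0.07 ± 0.26, 95% interval −0.48 to 0.62). Cysltr1 and Cysltr2, the cysteinyl leukotriene receptors, differed by 0.19 ± 0.16 and 0.18 ± 0.39. Ltb4r2, the low-affinity leukotriene B4 receptor, had at most 0.352 CPM in any library and was not tested, and Oxgr1, a leukotriene E4 receptor, had 0 counts in all 8. Breakdown enzymes had intervals that include 0. Cyp4f18, which hydroxylates leukotriene B4, differed by 0.33 ± 0.27, Ptgr1, which oxidises it, by −0.23 ± 0.37, and Cyp4f13 by 0.12 ± 0.12. Dpep2, a membrane dipeptidase that can act on leukotriene D4, had the largest value of the receptor and breakdown list, 0.69 ± 0.36, with 23.3 CPM in A-LTA4HOE replicate 2 against 7.16 to 11.4 CPM in the other 3. Ggt1, a glutamyl transferase, had 0 CPM in the 2 replicate 1 libraries and 7.25 to 39.1 CPM in the rest, low in the same pair of libraries as the epithelial genes.

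**Figure D2:**
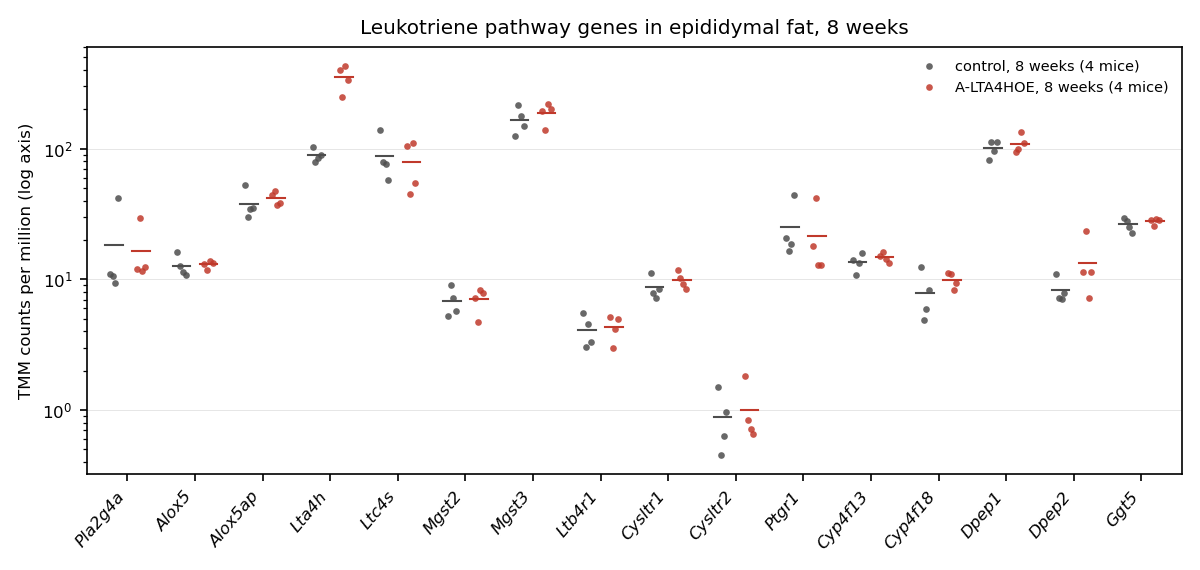
Points are single mice and bars the means of 4, for 16 leukotriene pathway genes in TMM-scaled CPM on a log axis, controls grey and A-LTA4HOE red. Lta4h alone shows separate groups, with 79.4 to 104 CPM in controls and 251 to 427 CPM in A-LTA4HOE mice.

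The other 3 called genes are copies of genes, or close relatives, that lie elsewhere in the genome. The pseudogene Gm11868 (gene ID 667251, chromosome 4, 18844005 to 18845867) had 0.186, 0.173, 0.136 and 0.0677 CPM in controls and 2.58, 3.39, 2.96 and 2.84 CPM in A-LTA4HOE mice, which is 4.39 ± 0.35 on the log2 scale (adjusted p = 3.40e-05). Morf4l1-ps1, a pseudogene that is transcribed (gene ID 624582, chromosome 16, 24529314 to 24534472), had 13.2, 12.7, 13.9 and 12.4 CPM in controls and 23.0, 20.1, 24.0 and 23.6 CPM in A-LTA4HOE mice (0.80 ± 0.08, adjusted p = 2.60e-04). Morf4l1b (gene ID 627352, chromosome 19, 41525252 to 41526961) had 15.1, 14.9, 16.5 and 14.3 CPM in controls and 24.3, 21.3, 24.7 and 22.3 CPM in A-LTA4HOE mice (0.61 ± 0.07, adjusted p = 0.00426). For each gene the groups lay apart, and within a group the values for the last 2 stayed within a narrow band. Morf4l1b was not called when the 2 replicate 1 libraries were left out (0.58, adjusted p = 0.143) or when only the 8 libraries of this age were fitted (0.60, adjusted p = 0.149).

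Transcript sequences show what each copy resembles and how little separates it from that gene. The stretches below are 60 bases of the GENCODE M21 transcripts on GRCm38 (mm10), written 5′ to 3′ on the transcript strand, and capitals mark the bases at which the copy and the gene differ. Gm11868 aligned best to Cyb5r4, a cytochrome b5 reductase (97.98% identity over 1485 bases). Morf4l1-ps1 aligned to Morf4l1, a chromatin protein of histone acetyltransferase complexes (99.794% over 969 bases). Gm7049 aligned to Me1, the cytosolic malic enzyme that makes NADPH for fat synthesis (98.427% over 1716 bases), and Gm8210 to Rpl29, a protein of the large ribosomal subunit (99.379% over 483 bases).
Cyb5r4: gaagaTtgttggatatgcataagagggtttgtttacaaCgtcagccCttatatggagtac
Gm11868: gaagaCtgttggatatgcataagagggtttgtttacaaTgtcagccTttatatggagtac
Morf4l1: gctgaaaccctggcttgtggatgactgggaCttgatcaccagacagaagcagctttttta
Morf4l1-ps1: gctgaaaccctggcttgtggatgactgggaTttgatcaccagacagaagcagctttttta
Me1: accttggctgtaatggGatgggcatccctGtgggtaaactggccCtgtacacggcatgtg
Gm7049: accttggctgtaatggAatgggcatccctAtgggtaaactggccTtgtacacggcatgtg
Rpl29: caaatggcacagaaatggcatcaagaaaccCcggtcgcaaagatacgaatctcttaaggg
Gm8210: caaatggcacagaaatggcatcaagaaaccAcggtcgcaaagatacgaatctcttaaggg
The stretches begin at coding base 205 of Cyb5r4, 489 of Morf4l1, 482 of Me1 and 42 of Rpl29. With 1 to 3 differences in 60 bases, a short read can match both members of a pair equally or nearly so, and how the authors' counting assigned such reads is not given in the sources used here. Values of these copies and of the genes they resemble are therefore uncertain one by one, and their sums are given beside them.

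Rpl29 was lower in A-LTA4HOE mice, and its copies differed in both directions. Rpl29 (chromosome 9, 106428889 to 106431568) had 217, 208, 229 and 175 CPM in controls and 116, 103, 116 and 117 CPM in A-LTA4HOE mice (−0.87 ± 0.15, adjusted p = 0.124, not called). Its copy Gm8210 (chromosome 1) had 3.19, 3.17, 3.31 and 2.59 CPM in controls and 47.1, 41.9, 49.7 and 50.5 CPM in A-LTA4HOE mice (3.95 ± 0.79, adjusted p = 0.359, not called). Neither Rpl29 nor Gm8210 overlapped between groups. A further copy, Gm13841 on chromosome 5, had 3.60 to 4.81 CPM in controls and 30.3 to 35.9 CPM in A-LTA4HOE mice, and Gm15454, Gm6344 and Gm10709 were also higher in all 4 A-LTA4HOE libraries. These 5 each had an unadjusted p under 0.05. Of the other 3 tested copies of Rpl29, 2 lay lower without overlap between groups. Gm17669 had 2.23 to 2.52 CPM in controls and 1.09 to 1.54 CPM in A-LTA4HOE mice (−0.81 ± 0.21, unadjusted p = 0.00186 with edgeR), and Gm5561 had 1.46 to 1.70 CPM in controls and 0.808 to 1.36 CPM in A-LTA4HOE mice (−0.52 ± 0.22, unadjusted p = 0.0326). Rpl29-ps2 differed by 0.03 ± 0.26. Summed, all 8 copies had 16.2 ± 1.32 CPM in controls and 93.3 ± 6.91 CPM in A-LTA4HOE mice (SD, n = 4). Rpl29 and the 8 copies together had 223 ± 24.5 CPM in controls and 206 ± 13.5 CPM in A-LTA4HOE mice, a log2 ratio of −0.11.

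Neither Rpl29 nor Gm8210 was called in the fit of all 16 libraries, in which 1 library of another group carried the same pattern. At 20 weeks, A-LTA4HOE replicate 4 had 123 CPM of Rpl29 and 52.3 CPM of Gm8210, whereas the other 3 A-LTA4HOE libraries of that age had 202 to 222 CPM and 3.19 to 3.77 CPM, near the 20-week controls, at 213 to 239.7 and 2.49 to 3.54 CPM. Without that library the adjusted p was 1.50e-09 for Gm8210 and for Gm13841 and 3.69e-04 for Rpl29, and 8 genes were called higher and 1 lower. With the 8 libraries of 8 weeks alone, 7 genes were called higher and 1 lower, and Gm8210 (adjusted p = 5.70e-06), Gm13841 (5.43e-05) and Rpl29 (0.0326) were among them. LOC115487184 was set beside Tma7, a translation machinery protein encoded on chromosome 9, but was not matched to it by alignment. It had 0.596 to 0.756 CPM in controls and 3.83 to 4.61 CPM in A-LTA4HOE mice of 8 weeks. At 20 weeks it had 4.76 CPM in A-LTA4HOE replicate 4 against 0.550 to 0.736 CPM in the other 3 A-LTA4HOE libraries.

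For the other pairs the copy was high and the gene showed a small difference or a wide spread. Me1 had 1068, 1154, 904 and 331 CPM in controls and 667, 287, 584 and 579 CPM in A-LTA4HOE mice (−0.71 ± 0.35), with the lowest value of each group in the library with epididymal RNA. Its copy Gm7049 (chromosome 13, 62812916 to 62815515) had 7.65, 7.47, 5.71 and 2.07 CPM in controls and 34.7, 14.5, 29.6 and 28.6 CPM in A-LTA4HOE mice (2.24 ± 0.41, adjusted p = 0.199). Both were lowest in control replicate 4 and in A-LTA4HOE replicate 2, and the groups lay apart for the copy only. Together, Me1 and Gm7049 had 870 ± 373 CPM in controls and 556 ± 175 CPM in A-LTA4HOE mice, a log2 ratio of −0.65. Cyb5r4 had 29.0 to 38.1 CPM in controls and 26.4 to 29.6 CPM in A-LTA4HOE mice, and with Gm11868 it summed to 32.0 ± 4.24 and 31.1 ± 1.42 CPM. Morf4l1 had 248 to 265 CPM in controls and 232 to 260.0 CPM in A-LTA4HOE mice (−0.05 ± 0.07), and with its copies it summed to 289 ± 10.0391 and 297 ± 15.1 CPM. Gm8518, whose closest gene is the splicing-associated Ccdc12, had 0.106 to 0.204 CPM in controls and 0.939 to 1.51 CPM in A-LTA4HOE mice (3.08 ± 0.64, adjusted p = 0.430). With Ccdc12 it summed to 27.5 ± 2.19 and 27.5 ± 1.92 CPM. In A-LTA4HOE mice Gm11868 and Gm8518 averaged 2.94 and 1.19 CPM, below the control SD of their sums with Cyb5r4 and Ccdc12. Those sums therefore cannot show a change as small as that of the copy.

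**Figure D3:**
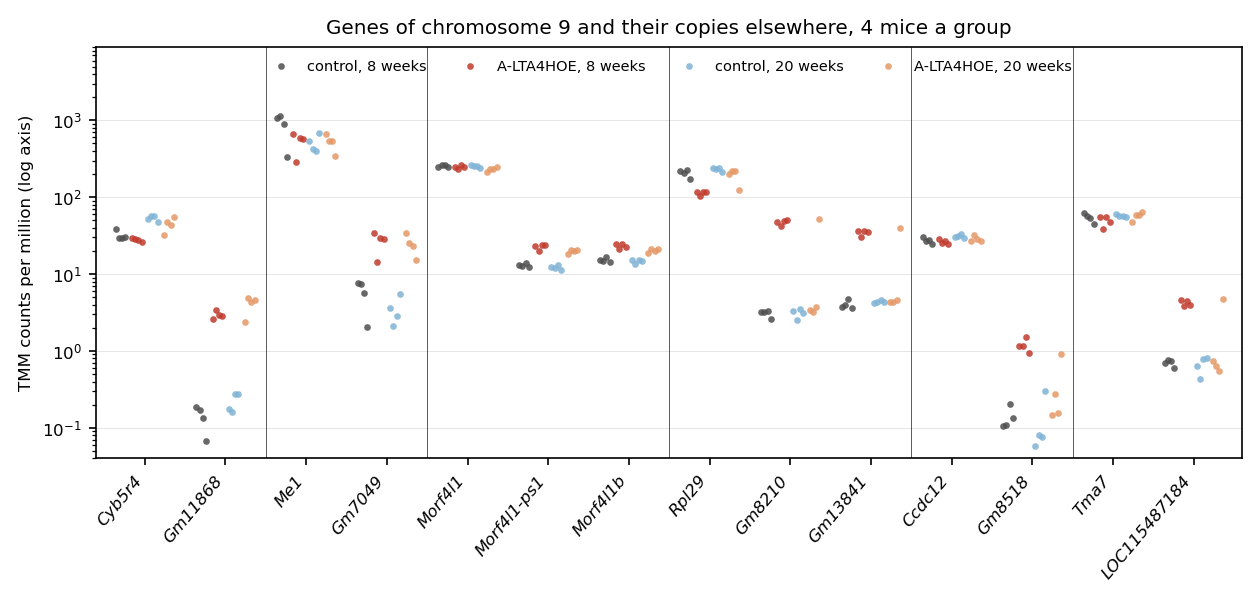
Points are single mice in TMM-scaled CPM on a log axis for 6 genes of chromosome 9, each followed by its copies, in the 4 groups of the series. LOC115487184, drawn after Tma7, was not matched to it by alignment. At 8 weeks the copies sit higher in all 4 A-LTA4HOE libraries. At 20 weeks Gm8210, Gm13841, Gm8518 and LOC115487184 are high in A-LTA4HOE replicate 4 alone. Gm11868, Gm7049, Morf4l1-ps1 and Morf4l1b lie above the controls in all 4 A-LTA4HOE libraries of 20 weeks.

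The genes that these copies resemble share a chromosome. Among 913 tested pseudogenes matched to a protein-coding gene, 67 have their closest gene on chromosome 9, and 12 of those (17.9%) had an unadjusted p under 0.05, 10 higher and 2 lower, against 9 of 846 (1.06%) with the closest gene elsewhere. Of the 10 copies with the smallest p, 9 have their closest gene on chromosome 9. Rpl29 carries most of this: 7 of the 12, and 5 of those 10, are its near-identical copies, which are not independent of each other. Without the 8 copies of Rpl29, 5 of 59 (8.47%) had an unadjusted p under 0.05, all higher. Within that chromosome, the stretch from Me1 to Ccdc12 (86581363 to 110711593) held 248 tested genes, of which 28 (11.3%) had an unadjusted p under 0.05, 8 higher and 20 lower. The rest of chromosome 9 had 17 of 793 (2.14%) and all placed genes 424 of 19145 (2.21%). The stretch was set after the values were seen, so these shares describe it and were not tested.

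Zfp949, a zinc finger gene inside the stretch (chromosome 9, 88548020 to 88571086), had 9.32, 9.59, 9.27 and 12.7 CPM in controls and 16.6, 34.99, 19.6 and 17.5 CPM in A-LTA4HOE mice (1.12 ± 0.20, adjusted p = 0.145). Without A-LTA4HOE replicate 2, which stood highest, it was 0.81 with an adjusted p of 0.0289, and without both libraries with epididymal RNA 0.93 with 0.00106. Poc1a, a centriole gene close to Rpl29, had 3.21 to 4.22 CPM in controls and 2.0998 to 3.07 CPM in A-LTA4HOE mice (−0.52 ± 0.16, unadjusted p = 0.00632 with edgeR). Lta4h itself lies on chromosome 10, where 15 of 894 genes (1.68%) had an unadjusted p under 0.05.

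**Figure D4:**
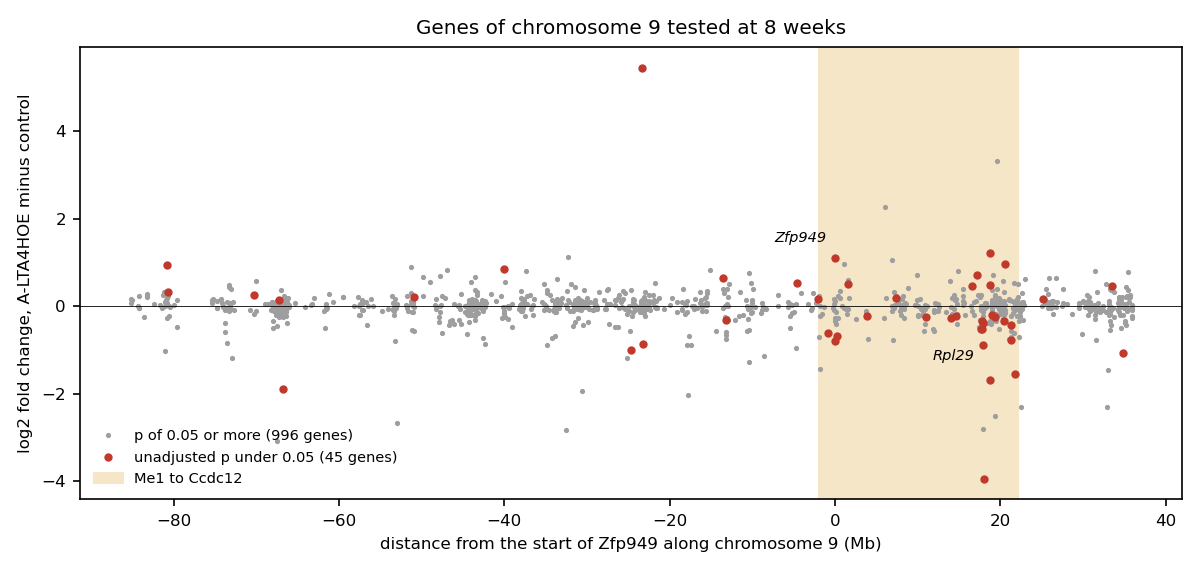
Genes of chromosome 9 by distance from the start of Zfp949 (Mb) and log2 fold change at 8 weeks, with the 45 genes of unadjusted p under 0.05 in red and the stretch from Me1 to Ccdc12 shaded. Of the red points 28 fall in the shaded stretch and 17 outside it.

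Neighbouring genes on chromosome 16, Eif4a2 and Rfc4, were also higher in all 4 A-LTA4HOE libraries, and neither was called. On that chromosome 12 of 581 genes (2.07%) had an unadjusted p under 0.05 with edgeR, against 2.21% of all placed genes. Eif4a2, an RNA helicase of translation initiation (chromosome 16, 23107468 to 23114132), had 233, 190.2, 193 and 268 CPM in controls and 352, 379, 398 and 306 CPM in A-LTA4HOE mice (0.70 ± 0.12, adjusted p = 0.124). The groups did not overlap, and without control replicate 4, its highest control, it was 0.80 with an adjusted p of 0.0229. Rfc4, a replication factor subunit that adjoins it, had 3.34 to 4.51 CPM in controls and 5.58 to 7.88 CPM in A-LTA4HOE mice (0.65 ± 0.16, adjusted p = 0.901). The called pseudogene Morf4l1-ps1 lies on the same chromosome, at 24529314 to 24534472. Gm2999, on chromosome 15, whose closest gene is Eif4a2, had 2.95 to 4.30 CPM in controls and 4.80 to 6.595 CPM in A-LTA4HOE mice (0.72 ± 0.15, adjusted p = 0.499). Here the gene and its copy were both high, and together they had 224 ± 37.4 and 364 ± 40.4 CPM.

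Among other genes with the smallest p, none was called by edgeR. The mitochondrial ribosomal RNA mt-Rnr2 had 372, 559.6, 545 and 435 CPM in controls and 335, 285, 332 and 288 CPM in A-LTA4HOE mice (−0.62 ± 0.14, adjusted p = 0.717; 0.00872 with DESeq2 and 0.0293 with voom). Its partner mt-Rnr1 had 283 to 439.6 CPM in controls and 210.0 to 271 CPM in A-LTA4HOE mice. Neither RNA overlapped between groups, and libraries made from polyadenylated RNA capture such transcripts incompletely. Txnip, which binds thioredoxin and restrains glucose uptake, had 591, 520.1, 774 and 1124 CPM in controls and 1095, 1211, 1631 and 1247 CPM in A-LTA4HOE mice (0.78 ± 0.20, adjusted p = 1; 0.0262 with voom). The groups met at control replicate 4, and without that library the difference was 1.04 (edgeR adjusted p = 0.0473). Ppp1r3b, a glycogen-targeting phosphatase subunit, had 20.2 to 34.9 CPM in controls and 11.6 to 20.5 CPM in A-LTA4HOE mice (−0.85 ± 0.20; adjusted p = 0.774, and 0.0420 with DESeq2).

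Smaller differences with little spread were those of Ypel3 and Usp10. Ypel3, a growth-restraining gene, had 45.8 to 52.9 CPM in controls and 56.2 to 68.9 CPM in A-LTA4HOE mice (0.32 ± 0.08). Usp10, a deubiquitinase, had 48.6, 48.7, 48.5 and 48.0 CPM in controls and 40.5, 40.9, 42.1 and 45.8 CPM in A-LTA4HOE mice (−0.19 ± 0.06). Klf11, a Krüppel-like transcription factor, had 12.2 to 18.2 and 19.8 to 27.2 CPM (0.53 ± 0.13), and Bhlhe40, a repressor tied to the circadian clock, 46.5 to 68.3 and 27.2 to 45.0 CPM (−0.62 ± 0.17). These groups did not overlap, but each adjusted p was 0.97 or more. Prg4, which encodes lubricin, had 7.51 to 14.6 CPM in controls and 15.5 to 31.7 CPM in A-LTA4HOE mice (1.06 ± 0.26). Alox15, the lipoxygenase of another branch of arachidonic acid metabolism, had 9.003, 4.51, 11.3 and 8.16 CPM in controls and 17.0, 19.8, 11.6 and 12.6 CPM in A-LTA4HOE mice (0.89 ± 0.42). Padi4, which citrullinates histones in granulocytes, and C5ar2, a complement receptor, were highest in A-LTA4HOE replicate 2, at 8.35 and 8.54 CPM against 2.66 to 4.16 and 3.34 to 3.56 CPM in the other 3.

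Adipocyte genes were not called in either direction. The mature adipocyte list had a median log2 fold change of −0.01, with 10 of 20 members positive, 10 negative and 0 at an unadjusted p under 0.05, against a median of 0.00 over all genes. Lep, the leptin gene, had 5202, 3190.1, 3018 and 1068 CPM in controls and 4598, 1169.9, 1892 and 2901 CPM in A-LTA4HOE mice (−0.24 ± 0.43). Its lowest value in each group was that of the library with epididymal RNA. Pparg, the master regulator of adipocytes, had 171 to 249.8 CPM in controls and 158 to 249 CPM in A-LTA4HOE mice (0.01 ± 0.16), and Slc2a4, the insulin-responsive glucose transporter, differed by −0.16 ± 0.31. The interval for Pparg, −0.33 to 0.34, leaves out a doubling, whereas those for Lep (−1.17 to 0.69) and Cfd, the adipsin gene (−0.79 to 1.03), do not.

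Lipid synthesis genes had mostly negative values, and 0 were called. In the cholesterol synthesis list 23 of 24 members were negative with a median of −0.32, and 4 had an unadjusted p under 0.05, all lower, which is 4 of 24 against 1.09% of all genes. The members of this list are not independent of each other, and 0 of the 24 separated the groups. Fdps, which makes farnesyl diphosphate, had 96.6, 83.2, 77.4 and 59.8 CPM in controls and 72.3, 47.1, 50.7 and 57.6 CPM in A-LTA4HOE mice (−0.48 ± 0.15). Cyp51, a sterol demethylase, had 99.0, 81.6, 80.6 and 43.7 CPM in controls and 68.4, 38.8, 44.5 and 58.2 CPM in A-LTA4HOE mice (−0.54 ± 0.22). Control replicate 4 was the lowest control for both, so the groups overlapped, and the 2 libraries with epididymal RNA had the 2 lowest sums of the list, 1297 and 1305 CPM against 1630 to 2734 CPM. Without those 2 libraries the list median was −0.38, and Sqle and Tm7sf2, the other 2 of the 4, are a squalene epoxidase and a sterol reductase (−0.43 ± 0.19 and −0.33 ± 0.14). The fatty acid and triglyceride synthesis list had a median of −0.15 with 16 of 20 members negative. Fasn, the fatty acid synthase, differed by −0.38 ± 0.38, and Pck1, which feeds glycerol into triglycerides, had 445 to 771 CPM in controls and 744 to 1957 CPM in A-LTA4HOE mice (0.91 ± 0.41).

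Of 13 thermogenic genes 2 had an unadjusted p under 0.05, both lower, against 1.09% of all genes. Dio2, the deiodinase that activates thyroid hormone, had 2.23, 4.84, 4.35 and 0.785 CPM in controls and 1.56, 1.21, 0.858 and 1.29 CPM in A-LTA4HOE mice (−1.31 ± 0.44). Cpt1b, which takes fatty acids into mitochondria, had 3.59 to 5.62 CPM in controls and 2.13 to 3.89 CPM in A-LTA4HOE mice (−0.68 ± 0.24). Neither separated the groups, and Ucp1, the uncoupling protein, had at most 0.130 CPM in any library. Nuclear oxidative phosphorylation genes had a median of −0.04, with 25 of 31 negative and 0 at an unadjusted p under 0.05.

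Macrophage transcripts were the immune group of most interest for leukotriene B4, and 0 of 18 macrophage genes were called or had an unadjusted p under 0.05. The list median was 0.29, with 17 of 18 positive, and its summed level was 2695, 1531, 1767 and 1845 CPM in controls and 2478, 3457, 1931 and 2108 CPM in A-LTA4HOE mice. A-LTA4HOE replicate 2 was highest, and control replicate 1 exceeded the other 3 A-LTA4HOE libraries. Adgre1, which encodes F4/80, had 108, 61.6, 69.0 and 72.1 CPM in controls and 106, 190.2, 71.8 and 85.8 CPM in A-LTA4HOE mice (0.55 ± 0.35). Cd14, the lipopolysaccharide co-receptor, was the 1 member of 18 whose groups did not overlap, at 12.3 to 15.7 and 16.1 to 27.1 CPM (0.49 ± 0.28). Of all genes tested, 0.787% lay higher without overlap. Without A-LTA4HOE replicate 2 the list median was 0.11.

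That library also carried the lipid-associated macrophage signal. Gpnmb, a glycoprotein of lipid-laden macrophages, had 52.1, 19.4, 16.1 and 19.4 CPM in controls and 40.7, 362, 19.7 and 21.8 CPM in A-LTA4HOE mice (2.06 ± 0.84, unadjusted p = 0.0280 with edgeR). Trem2, a lipid-sensing receptor, had 11.7, 9.07, 7.32 and 7.59 CPM in controls and 11.3, 50.8, 7.81 and 7.71 CPM in A-LTA4HOE mice (1.12 ± 0.53). Without A-LTA4HOE replicate 2 the log2 differences were 0.04 for Gpnmb, 0.01 for Trem2 and 0.03 for Atp6v0d2, a proton pump subunit. The list median, 0.26, was then 0.03. The part that epididymal RNA plays in the immune genes of this library was not tested.

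Cytokine and other immune lists had 0 members called and 0 at an unadjusted p under 0.05. The medians were 0.02 for inflammatory cytokines, 0.00 for chemokines and their receptors, −0.24 for neutrophil genes, 0.16 for T and natural killer cell genes and 0.59 for B and plasma cell genes. Single libraries moved each of these. The B and plasma cell median was 0.13 without A-LTA4HOE replicate 2, and the cytokine median was −0.31 without it and 0.29 without A-LTA4HOE replicate 3. Without control replicate 1 the chemokine median was 0.33 and the neutrophil median 0.08. The T and natural killer cell median was −0.12 without A-LTA4HOE replicate 4 and 0.53 without control replicate 4. Ccl2, the monocyte chemoattractant, had 105, 20.2, 19.4 and 5.79 CPM in controls and 62.5, 25.6, 11.2 and 12.0 CPM in A-LTA4HOE mice (−0.43 ± 0.69). Tnf (0.621 to 2.04 CPM) and Il1b (0.325 to 4.36 CPM) were low throughout, with intervals too wide to bound a doubling of Il1b (−0.44 ± 0.72). The replicate 1 library of each group was the highest for Ccl2, Tnf and Il1b in that group.

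Stromal, vascular and matrix lists had 0 genes called. Medians were 0.05 for endothelial genes, 0.12 for stromal progenitors, 0.08 for collagen and matrix and 0.05 for smooth muscle and pericytes. The last was −0.67 without A-LTA4HOE replicate 2 and 0.60 without control replicate 4, the 2 libraries with epididymal RNA. Thbs1, which encodes the matrix glycoprotein thrombospondin, had 307, 161, 150.2 and 161 CPM in controls and 599, 405, 252 and 221 CPM in A-LTA4HOE mice (0.92 ± 0.32, unadjusted p = 0.0108 with edgeR). Control replicate 1 lay inside the A-LTA4HOE range, and the 2 replicate 1 libraries were the highest of their groups. The mesothelial list had a median of 0.38, and 0.08 without the 2 replicate 1 libraries; in it Slpi, a secreted protease inhibitor, had 29.2 to 71.0 CPM in controls and 63.7 to 155 CPM in A-LTA4HOE mice (1.01 ± 0.44).

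Germ cell genes had the lowest list median, −2.74, with 8 of 8 negative and 0 called or at an unadjusted p under 0.05. They summed to 0.319, 54.9, 50.6 and 177 CPM in controls and to 0.248, 13.9, 24.6 and 16.6 CPM in A-LTA4HOE mice. Insl3 and Cyp11a1, a hormone and a steroid-making enzyme of Leydig cells in the testis, were chosen after their values were seen: Insl3 had 44.9 and 26.6 CPM in control replicates 2 and 3, 10.5 CPM in A-LTA4HOE replicate 2 and at most 0.799 CPM elsewhere. The part that RNA of neighbouring organs plays in other genes was not tested. Blood genes, mainly haemoglobins, had a median of −0.45 with 7 of 7 negative, and their sums ran from 4429 to 9258 CPM in controls and from 2198 to 7061 CPM in A-LTA4HOE mice.

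**Figure D5:**
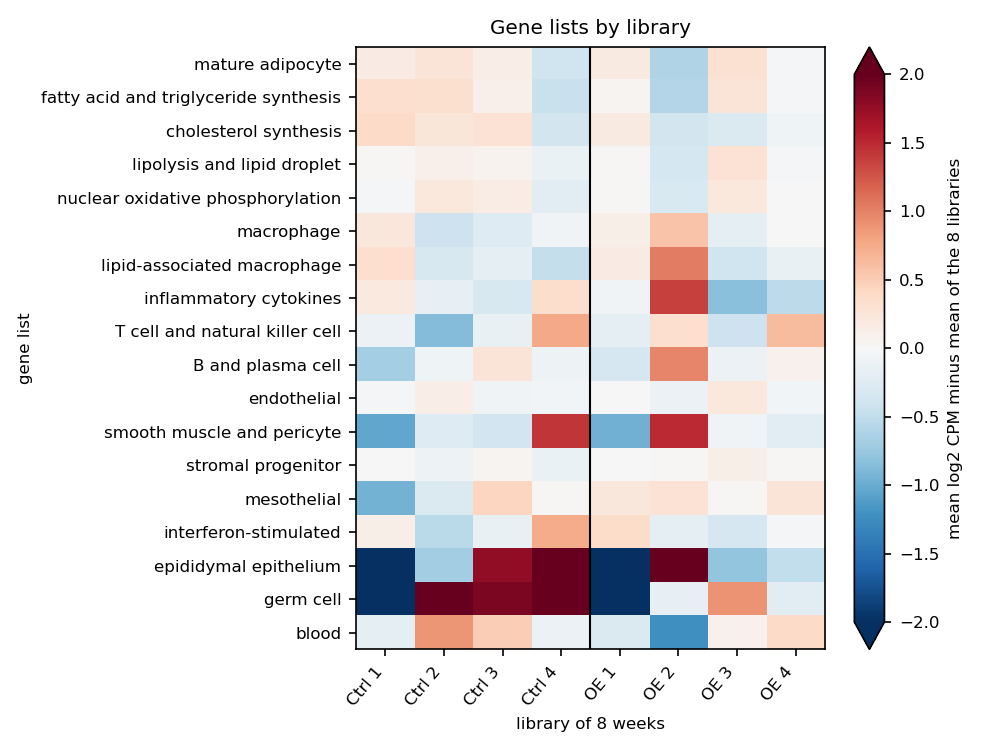
Rows are gene lists, columns the 8 libraries (Ctrl control, OE A-LTA4HOE), and colour the list's mean log2 CPM minus its mean over the 8 libraries, limited to 2 in either direction. Epididymal genes are highest in Ctrl 4 and OE 2 and lowest in Ctrl 1 and OE 1, and OE 2 is the highest for macrophage and lipid-associated macrophage genes.

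The difference between A-LTA4HOE and control mice at 8 weeks was set against that at 20 weeks by an interaction term. With edgeR 0 of 19189 genes were called (0%), 650 had an unadjusted p under 0.05, and DESeq2 called 30 and voom 0. Of the genes printed above, Bhlhe40, Usp10, Ggt1 and Cdh16 were among those 30. Ggt1 and Cdh16 had 0 CPM in the replicate 1 libraries of 8 weeks. At 20 weeks Ggt1 had 12.4 CPM in A-LTA4HOE replicate 1, 0.105 CPM in A-LTA4HOE replicate 3 and 0 CPM in the rest. Its interaction thus leaned on single libraries, at 10.1 ± 5.01 with edgeR (unadjusted p = 0.0672). Bhlhe40 had a log2 fold change of −0.62 ± 0.17 at 8 weeks and 0.56 ± 0.17 at 20 weeks. Usp10 had −0.19 ± 0.06 at 8 weeks and 0.18 ± 0.06 at 20 weeks. For Lta4h the log2 fold change was 1.98 ± 0.14 at 8 weeks and 1.60 ± 0.14 at 20 weeks, an interaction of −0.38 ± 0.19 (adjusted p = 0.982). For Rpl29 it was −0.87 ± 0.15 and −0.28 ± 0.15, and for Txnip 0.78 ± 0.20 and −0.13 ± 0.20, with interactions of 0.60 ± 0.21 and −0.92 ± 0.28 that were not called.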

How the data were processed

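RNA of epididymal fat was sequenced from 16 mice, and 4 A-LTA4HOE and 4 control mice of 8 weeks were compared. Per the labels' protocols, total RNA was extracted with RNeasy and libraries were made with the TruSeq stranded mRNA kit. Per the submitters' processing notes, bcl2fastq 2.20.0, Trimmomatic, HISAT2 2.1.0 and StringTie 2.1.3b were used on mm10. The annotation release, the strand setting and the handling of reads with several matches are not given in the sources used here. The read counts deposited by the authors are whole numbers that were not normalised, and they were the values tested. The TPM deposited by the authors served for levels per length, and the FPKM deposited by the authors were not used.

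The analysis used edgeR 4.0.16 in R 4.3.3, with filterByExpr at a minimum count of 10, TMM scaling, and a robust quasi-likelihood fit of 4 groups with 12 residual degrees of freedom. Benjamini-Hochberg adjustment covered the 19189 genes tested, and an adjusted p under 0.05 was a call. Each log2 fold change is given with its standard error, and intervals are 95%. Adjusted p-values are from this fit unless DESeq2 1.42.0 or limma 3.58.1 (voom) is named. List means used a prior count of 2. The other alternatives were DESeq2 size factors, no and stricter filters, fewer libraries, a replicate block and surrogate variables (sva 3.50.0). Positions come from RefSeq by gene ID. Pseudogene transcripts of GENCODE M21 were matched with BLAST 2.17.0 (word size 20, E-value limit 1e-10, at least 50% of the copy aligned); 913 of 1109 tested pseudogenes matched. Figures were drawn with matplotlib 3.10.9.

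The genes, 36 lists and tests were chosen with earlier results of these data known. Genes were named by the following rule, of which a part is printed: Lta4h, members of the leukotriene and copy lists, all called genes, the 10 higher and 10 lower with the smallest p and a mean log2 CPM of at least 1, the 8 and 8 with the largest fold change among those whose groups do not overlap, up to 3 members per list with the smallest p, and a fixed panel of adipose genes. The copies of chromosome 9 genes other than Gm11868 and the Morf4l1 relatives, the genes they resemble, Rfc4, Insl3, Cyp11a1 and the epithelial genes were chosen after their values were seen. The labels do not say that mice were independent beyond their numbering, so p-values measure the spread between these libraries.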

Additional observations from a re-analysis of the deposited data

Results flagged for a closer look

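Within a group of 4 libraries, a library counted as far from the others when the gap to its nearest neighbour made up most of the group's range (Dixon's ratio at the 95% level), which chance gives in about 1 of 20 groups. Of 184 groups of gene values 19 met this and of 72 groups of list means 5, and no printed gene was called by edgeR for a different effect at 20 weeks.

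A-LTA4HOE replicate 2 accounted for 9 of these. It was high for Gpnmb (362 CPM against 19.7 to 40.7 in the other 3), Trem2 (50.8 against 7.71 to 11.3), Atp6v0d2 (60.3 against 3.11 to 10.3), C5ar2 (8.54 against 3.34 to 3.56), Zfp949 (34.99 against 16.6 to 19.6) and Pla2g4a (29.7 against 11.6 to 12.5). It was low for Rpl29 (103 against 116 to 117), Gm13841 (30.3 against 35.8 to 35.9) and Ggt5, a glutamyl transferase that acts on leukotriene C4 (25.8 against 28.6 to 28.9).

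Control replicate 1 was high for macrophage and matrix genes: Gpnmb (52.1 CPM against 16.1 to 19.4), Atp6v0d2 (13.9 against 2.90 to 4.28), Cd68 (87.9 against 46.0 to 51.7), Itgax, an integrin of inflammatory macrophages (37.3 against 10.9 to 15.1), Ccl2 (105 against 5.79 to 20.2) and Thbs1 (307 against 150.2 to 161). Its mean over resident and alternatively activated macrophage genes was 6.29 log2 CPM against 5.28 to 5.39. Control replicate 4 was high for Pla2g4a (42.3 CPM against 9.34 to 11.0), Ptgr1 (44.4 against 16.6 to 20.7) and Zfp949 (12.7 against 9.27 to 9.59). Its mean over the list of Morf4l1 relatives and Gm11868 was low, at 3.99 log2 CPM against 4.20 to 4.23.

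The remaining cases were A-LTA4HOE replicate 1 for Cysltr2 (1.81 CPM against 0.655 to 0.835), A-LTA4HOE replicate 3 for stromal progenitor genes (6.39 log2 CPM against 6.28 to 6.29), and control replicate 2 for endothelial genes (6.53 against 6.33 to 6.36) and proliferation genes (2.70 against 3.02 to 3.08).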

How the results depend on the processing

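Lta4h kept its direction and its call under all 28 alternatives, at 1.87 to 2.21. The count of 4 higher and 0 lower genes became 10 and 5 with DESeq2, 10 and 2 with voom, 7 and 1 with the 8 libraries of 8 weeks alone, and 4 and 2 without 4 libraries together (control replicates 1 and 4, A-LTA4HOE replicates 1 and 2), the 2 lower being Insl3 and Cyp11a1. Leaving out each of the 16 libraries in turn gave 4 to 8 higher and 0 to 1 lower, and the extremes came without A-LTA4HOE replicate 4 of 20 weeks, where Gm8210, Gm13841, LOC115487184, Gm15454 and Rpl29 joined. The interaction count of 0 became 30 with DESeq2, 1 without the 4 libraries together and 0 to 3 on leaving out single libraries; it cannot be had from 8 weeks alone. With the replicate number as a block, 2 genes were higher, Lta4h (1.95) and Gm11868, and Morf4l1-ps1 (adjusted p = 0.0577) and Morf4l1b (0.231) were lost. The deviations of same-numbered libraries of 8 weeks correlated with r of 0.826, −0.198, −0.0334 and 0.278, in order of replicate. These values cannot tell whether the numbers pair the mice, and the labels do not say. Morf4l1b lost its call in 4 of the 28 alternatives, among them the fit without the 4 libraries together. Of 2542 values of genes other than Lta4h, 2503 stayed on their side of the threshold. Most were of genes far from a call in the main fit, for which this count says little. Among the 2542 values the sign turned in 85, all of uncalled genes, and it turned in 108 of 1008 list medians. For 21 of 36 lists it turned on leaving out 1 library of 8 weeks. Counts limit the rarest genes: Gm11868 lay at 0.0677 to 0.186 CPM in controls, where a library of 67576994 counts gives few reads, so its fold change is imprecise.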

Other observations

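Stress and transcription factor genes outside the groups above gave small values, and 0 were called by edgeR. Atf4, the effector of the integrated stress response, had 131, 141, 135 and 131 CPM in controls and 118, 123, 115 and 122 CPM in A-LTA4HOE mice (−0.17 ± 0.07, unadjusted p = 0.0338), and the groups did not overlap. The median of its list of 20 unfolded protein and integrated stress response genes was −0.01, with 8 positive and 12 negative. Dnaja1, a heat shock co-chaperone, had 186 to 242 CPM in controls and 169.6 to 182 CPM in A-LTA4HOE mice (−0.23 ± 0.15), again without overlap, and the 13 heat shock genes had a median of −0.10. Of 18 circadian clock genes (median −0.05), Npas2, a partner of the clock activator, had 4.62 to 6.45 CPM in controls and 2.48 to 4.81 CPM in A-LTA4HOE mice (−0.54 ± 0.22).

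Of 19 insulin signalling genes (median −0.02), Foxo1, a transcription factor that insulin restrains, had 80.7 to 87.9 CPM in controls and 89.8, 75.0477, 144.0 and 136 CPM in A-LTA4HOE replicates 1 to 4 (0.40 ± 0.19, unadjusted p = 0.0486 with edgeR). Its high values were thus those of A-LTA4HOE replicates 3 and 4. Interferon-stimulated genes had a median of −0.11 with 15 of 18 negative. Mast cell genes had a median of 0.16, dendritic cell genes −0.01, skeletal muscle genes −0.03 and immediate early genes 0.00. Leaving out single libraries of 8 weeks moved the interferon-stimulated median from −0.29 (without A-LTA4HOE replicate 1) to 0.14 (without control replicate 4). The same gave −0.12 (without control replicate 1) to 0.34 (without control replicate 4) for mast cell genes and −0.38 (without A-LTA4HOE replicate 2) to 0.25 (without control replicate 4) for skeletal muscle genes. The dendritic cell median was 0.20 without control replicate 1, and the circadian clock median 0.29 without control replicate 4.

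Among genes whose groups did not overlap, Apold1, an endothelial gene, had 16.4 to 22.0 CPM in controls and 11.6 to 12.9 CPM in A-LTA4HOE mice (−0.68 ± 0.26). Zfp467, a zinc finger factor that favours adipocyte formation, had 34.8 to 41.3 CPM in controls and 26.7 to 32.5 CPM in A-LTA4HOE mice (−0.39 ± 0.12). F5, which encodes coagulation factor V, had 1.749 to 4.81 CPM in controls and 5.29 to 11.61 CPM in A-LTA4HOE mice (0.96 ± 0.43). Slc10a6, a transporter of sulfated steroids, had 4.81 to 7.53 CPM in controls and 8.70 to 12.3 CPM in A-LTA4HOE mice (0.87 ± 0.44). The adjusted p of these 4 genes was 1.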
